A study of Mus musculus with 6 samples.

Results

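The protamines, transition proteins and spermatid linker histones are the basic proteins that repack the sperm nucleus, and 7 genes for them were taken by symbol from the deposited gene tables, of 23253 genes listed in any library: the protamines Prm1, Prm2 and the protamine-cluster gene Prm3, the transition proteins Tnp1 and Tnp2, and the linker histones Hils1 and H1fnt. All 7 were listed in all 6 libraries, and all 7 passed the filter on low counts. The libraries were made from poly(A)-selected testis RNA of mice described as C57BL/6, 8 months old. Whether the genetic background was uniform was not tested. They comprise 3 labelled control and 3 labelled L3mbtl2 cKO, a conditional knockout of a Polycomb PRC1.6 subunit, and the comparison asks what loss of L3mbtl2 does to the testis transcriptome. The labels give neither the Cre driver nor the cell type of the deletion, nor whether each library is 1 animal. The p-values below thus reflect the spread among 3 libraries a group, part of which may be technical.

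During spermiogenesis most histones of the haploid spermatid nucleus are removed, transition proteins take their place for a short time, and protamines then condense the DNA into a form that fits the sperm head. The mRNAs of these proteins are made in round spermatids, when the genome is still open to transcription, and are stored in ribonucleoprotein particles until elongating spermatids translate them. Testis RNA therefore holds them in great abundance, and their level follows the number of post-meiotic cells in the sample as well as the RNA per cell; in bulk tissue, fewer cells of a type and less RNA per cell cannot be told apart.

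Of the 7 genes, 4 form a cluster of 8889 bases on mm10 chromosome 16, all on the minus strand: Tnp2 (10787935 to 10788655), Prm3 (10790508 to 10790914), Prm2 (10791377 to 10792105) and Prm1 (10796332 to 10796823). The gap between Tnp2 and Prm3 is 1852 bases, that between Prm3 and Prm2 462 bases and that between Prm2 and Prm1 4226 bases. The other 3 lie alone, Tnp1 on chromosome 1 (73015074 to 73015899, minus strand), Hils1 on chromosome 11 (94967593 to 94968456, plus strand) and H1fnt on chromosome 15 (98255982 to 98257307, minus strand; RefSeq now names it H1f7). In the GENCODE models that match their RefSeq transcripts, Prm1, Prm2, Tnp1 and Tnp2 each have 2 exons and 1 intron, of 92, 105, 399 and 171 bases, whereas Prm3, Hils1 and H1fnt have 1 exon. The coding regions are short, with 51 codons in Prm1, 55 in Tnp1, 101 in Prm3, 107 in Prm2, 117 in Tnp2 and 170 in Hils1, against 398 in H1fnt. Tnp1 shares 40 exonic bases with the antisense gene 1700027A15Rik, and reads of that stretch cannot be told apart because no source used here states the strandedness.

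Sequences before the start sites of the protamine cluster and of Tnp1 are shown because CREM, the cAMP-responsive activator of spermatids, is known to act through CRE-like elements in such promoters. Each window, from RefSeq on GRCm38.p6, is written 5′ to 3′ on the gene's own strand and runs from 120 to 21 bases before the RefSeq start. For Prm1 only 30 bases around the match are given, since 1 GENCODE transcript begins 63 bases further upstream. Capitals mark TGANNTCA, which reads the same on both strands and covers the full CRE (TGACGTCA) and its variants, or TATAAA on either strand.
Prm1 (chr16:10796869-10796898, minus strand): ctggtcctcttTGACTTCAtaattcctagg
Prm2 (chr16:10792126-10792225, minus strand): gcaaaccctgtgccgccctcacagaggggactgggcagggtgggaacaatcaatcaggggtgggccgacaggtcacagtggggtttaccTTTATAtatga
Prm3 (chr16:10790935-10791034, minus strand): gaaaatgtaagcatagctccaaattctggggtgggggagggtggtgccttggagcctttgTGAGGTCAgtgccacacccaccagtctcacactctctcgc
Tnp2 (chr16:10788676-10788775, minus strand): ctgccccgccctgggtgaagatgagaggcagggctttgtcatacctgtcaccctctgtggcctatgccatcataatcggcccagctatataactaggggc
Tnp1 (chr1:73015920-73016019, minus strand): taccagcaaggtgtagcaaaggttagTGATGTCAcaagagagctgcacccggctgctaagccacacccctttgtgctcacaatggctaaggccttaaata

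TGANNTCA occurred in the 250 bases before the start of 3 of the 7 genes: in Prm1 as TGACTTCA, 64 to 57 bases before the start, in Prm3 as TGAGGTCA, 60 to 53 bases before it, and in Tnp1 as TGATGTCA, 94 to 87 bases before it. Of all 32851 RefSeq promoter windows of that length, 11.9% hold it. The full TGACGTCA was in 0 of the 7 and in 1.55% of all windows. TATAAA was found in Prm2 alone, on the reverse strand 31 to 26 bases before the start, and in 12.4% of all windows. These matches describe the letters in this window and nothing about binding.

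The targeted gene was examined before any direction was drawn. Under the control label L3mbtl2 had 658, 705 and 673 expected counts, and under the cKO label 1030, 1105 and 1031. In FPKM the gap was smaller, at 14.0, 14.9 and 13.6 against 15.9, 17.1 and 16.03. It was thus higher under the label that names its loss, and the deposited tables carry file names with the opposite genotype from the sample titles. The RSEM-weighted transcript length of L3mbtl2 also separated the groups, at 2652 to 2838 bases under the control label and 3489 to 3498 bases under the cKO label. Each library is therefore called by its label, and every direction below would turn if the labels were exchanged. Expected counts summed to between 17689205 and 18822050 per library.

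Prm1 and Prm2 were the most abundant transcripts per length in 5 of the 6 libraries. Prm1, whose arginine-rich product is the DNA-condensing protein found in the sperm of all mammals, stood at 6806, 7327 and 5074 FPKM under the control label and at 8272, 7492 and 7688 FPKM under the cKO label. The groups did not overlap, and control replicate 3 was the lowest of the 6. Prm2, made as a precursor that is cleaved on the DNA, was at 7071, 6974 and 5073 FPKM against 8068, 7824 and 7184 FPKM, again with no overlap and with the same library lowest. The 2 genes exchanged places by FPKM among all genes, ranking 1 and 2 in every library except control replicate 3, where they ranked 2 and 3. Prm3, an acidic and cytoplasmic protein despite its name and place in the cluster, was the least abundant of the 7 in every library, at 286, 357 and 234 FPKM against 388, 319 and 341 FPKM. Its groups overlapped, since control replicate 2 lay above cKO replicates 2 and 3.

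The transition proteins came next. Tnp2, a zinc-binding protein encoded beside the protamines, was at 3910 (control replicate 1), 3859 and 2777 FPKM under the control label and at 4535, 4332 and 4021 FPKM under the cKO label. It ranked 3 or 4 among all genes and its groups did not overlap. Tnp1, the other transition protein, was at 2139, 2710.4 and 1866 FPKM against 2837, 2359 and 2570.1 FPKM. It ranked between 4 and 6, and its groups overlapped because control replicate 2 lay above cKO replicates 2 and 3, as for Prm3.

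Linker histones of spermatids were the next in level, below the transition proteins in every library. Hils1, a spermatid linker histone encoded within the span of the sarcoglycan gene Sgca, was at 501, 536 and 410.3 FPKM against 615, 554 and 566 FPKM. H1fnt, which is found at the apical pole of the spermatid nucleus and is needed for its condensation, was at 485, 493 and 339 FPKM against 552, 518 and 511 FPKM, below Hils1 in each of the 6 libraries. For neither gene did the groups overlap. The Hils1 exon shares 0 bases with exons of Sgca, which was itself at 5.45 to 10.1 FPKM.

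Each of the 7 genes varied more among the control libraries than among the cKO ones. The coefficient of variation of FPKM was 13.5 to 21.1% under the control label and 4.22 to 10.1% under the cKO label, with Hils1 the least and Prm3 the most variable under the control label. The highest and lowest library differed by at most 1.66-fold, in Prm3.

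**Figure D1:**
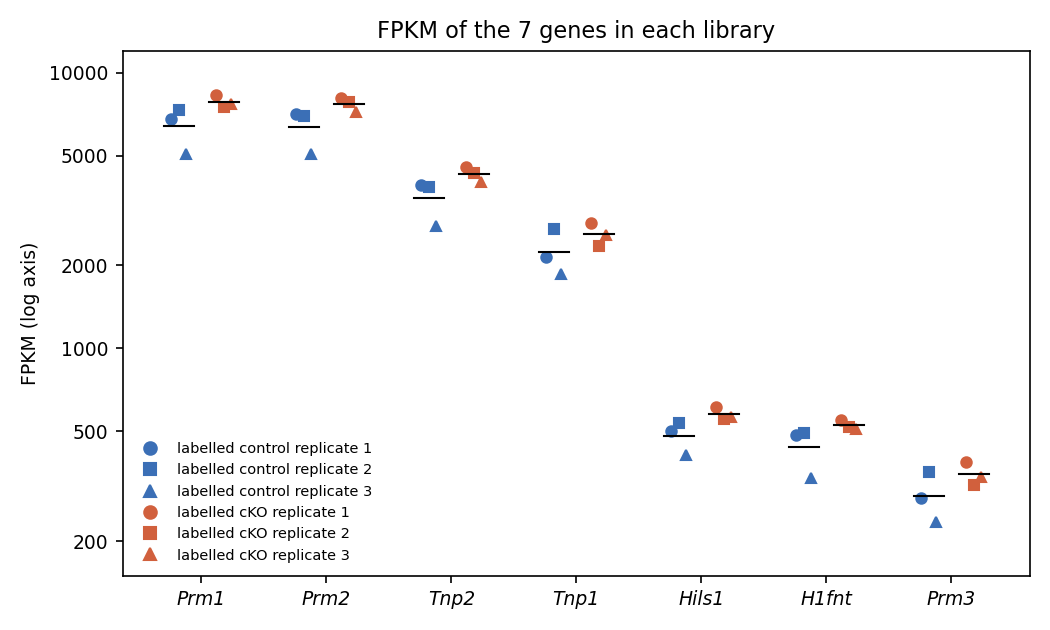
FPKM (log axis) of the 7 genes in each library; blue is labelled control, orange labelled cKO, the symbol gives the replicate and the black line the group mean of 3 libraries. Prm1 and Prm2 lie highest, between 5073 and 8272 FPKM, Prm3 lowest, and labelled control replicate 3 is the lowest library for each gene.

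Against this spread, the difference between the groups was of one size for all 7 genes and passed the test for none. The log2 fold change (labelled cKO minus labelled control, on TMM-scaled counts) ran from 0.30 in Tnp1 to 0.38 in Tnp2, with a median of 0.36, and 7 of 7 were positive, while the median over all 18269 genes tested was -0.0048 and 49.5% of them were positive. By edgeR's quasi-likelihood test with Benjamini-Hochberg adjustment over all genes, 0 of the 7 were called at an adjusted p of 0.05, as were 0% of all genes. Their adjusted p ran from 0.167 (Hils1) to 0.253 (Tnp1). At an unadjusted p of 0.05, 3 of them were higher (Prm1, Tnp2 and Hils1), as were 8.85% of all genes. DESeq2 called 0 of the 7, against 9.93% of all genes it tested (0.547% higher), and limma on log2(FPKM + 1) called 0, against 0.0065% of all genes.

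For Prm1 the log2 fold change was 0.38 (SE 0.16, 95% interval 0.0020 to 0.76), a 1.30-fold difference with an edgeR adjusted p of 0.179. Tnp2 had the same size, at 0.38 (SE 0.16, interval 0.0055 to 0.76; edgeR adjusted p = 0.179). Hils1 had the narrowest interval, 0.053 to 0.66 around 0.36 (SE 0.13; edgeR adjusted p = 0.167), and Tnp1 the smallest change, 0.30 (SE 0.17, interval -0.093 to 0.697; edgeR adjusted p = 0.253). Prm2, H1fnt and Prm3 lay between them at 0.37 (SE 0.16), 0.36 (SE 0.16) and 0.35 (SE 0.18). Groups did not overlap in 5 of the 7 genes, all higher under the cKO label, which 18% of all genes tested also were (37.9% in either direction). In those 5 an exact two-sided permutation test over 6 libraries gave p = 0.1, the smallest that 3 against 3 allows, and in Prm3 and Tnp1 it gave p = 0.3.

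The call turned on control replicate 2, and the size of the difference moved with control replicates 2 and 3, in opposite directions. Without control replicate 2, edgeR called 4 of the 7 higher: Prm1 (log2 0.54, adjusted p = 0.0383), Prm3 (0.57, adjusted p = 0.0232), Tnp1 (0.51, adjusted p = 0.0275) and Hils1 (0.48, adjusted p = 0.0311). In that fit edgeR called 31.7% of all genes, 11% higher. Without control replicate 3, by contrast, the log2 fold changes were 0.18 (Tnp1) to 0.24 (Hils1) and edgeR called 0 of the 7, and 0.0108% of all genes.

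**Figure D2:**
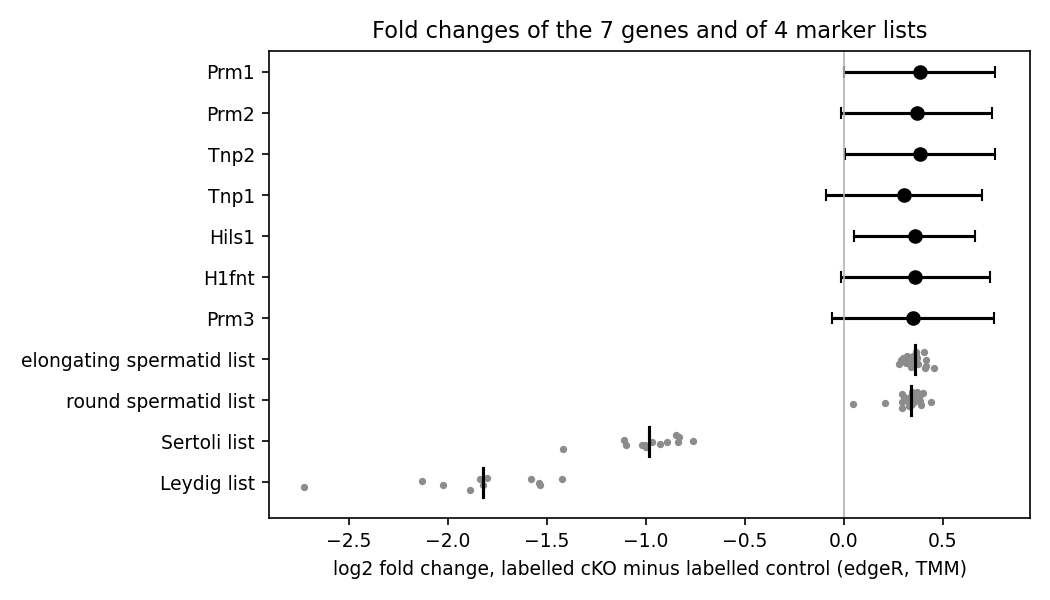
Log2 fold change, labelled cKO minus labelled control, from edgeR with TMM scaling; black points with bars are the 7 genes with their 95% interval, grey points are single genes of 4 marker lists and black ticks the list medians. The 7 genes lie between 0.30 and 0.38, within the range of the spermatid lists, and the Sertoli and Leydig genes lie below 0.

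The proportions between the genes within a library do not depend on library scaling, and they differed little between groups. The Prm1 to Prm2 ratio of FPKM was 0.962, 1.05 and 1.0003 under the control label and 1.03, 0.958 and 1.07 under the cKO label, so that the 2 protamine mRNAs were close to equal per length in every library. The group means were 1.004 ± 0.0443 and 1.02 ± 0.0567 (SD, n = 3 each; exact permutation p = 0.8, two-sided). Tnp2 stood at 0.549 ± 0.0240 of Prm1 under the control label and 0.5498 ± 0.0276 under the cKO label (SD, n = 3 each; exact permutation p = 1).

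Tnp1 relative to Prm1 was 0.314, 0.370 and 0.368 under the control label and 0.343, 0.315 and 0.334 under the cKO label. That is a mean of 0.351 ± 0.0315 against 0.331 ± 0.0144 (SD, n = 3 each; exact permutation p = 0.4), with overlapping groups. Hils1 relative to Prm1 was 0.0736, 0.0732 and 0.0809 against 0.0744, 0.07397 and 0.0737 (exact permutation p = 1 over 6 libraries). Control replicate 3 held the highest proportion of Hils1, and the other 5 libraries lay between 0.0732 and 0.0744. With Benjamini-Hochberg adjustment over the 7 within-library measures tested, each of these ratios had an adjusted p of 1.

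**Figure D3:**
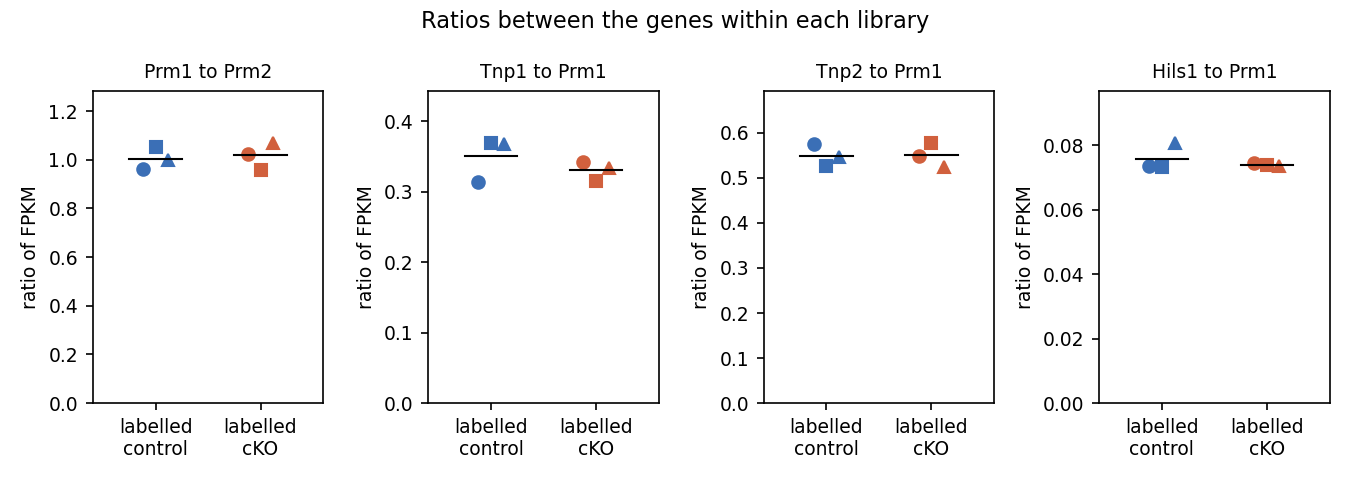
Ratio of FPKM between pairs of the genes within each library; blue is labelled control, orange labelled cKO, circles, squares and triangles are replicates 1, 2 and 3, and the line is the group mean. Groups overlap in each panel, and Prm1 to Prm2 lies between 0.958 and 1.07.

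Together the 7 genes held 1.02 ± 0.174% of the expected counts under the control label and 1.23 ± 0.0634% under the cKO label (SD, n = 3 each), with a range of 0.824 to 1.304% over the 6 libraries. The groups did not overlap, and an exact two-sided permutation test gave p = 0.1, or 0.7 after adjustment over the 7 measures. Without control replicate 3 the difference in share was 0.114 percentage points, where all libraries gave 0.212. As a share of summed FPKM, which corrects for their short length, they held 3.38 to 4.698% under the control label and 4.83 to 5.25% under the cKO label.

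Set against other haploid transcripts of the same library, the difference was close to 0. The mean log2 CPM of the 7 genes exceeded that of 23 round spermatid and acrosome genes by 2.78, 2.76 and 2.69 under the control label and by 2.88, 2.71 and 2.74 under the cKO label. The groups differed by 0.033 (exact permutation p = 0.7). Over 20 genes of elongating spermatids the excess was 0.392, 0.392 and 0.318 against 0.458, 0.315 and 0.342, a difference of 0.0042 (exact permutation p = 1). Taken singly, the 7 genes differed between groups by -0.022 (Tnp1) to 0.059 (Tnp2) relative to the round spermatid genes.

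Other lists of haploid genes had medians of similar size. Of the elongating spermatid genes 20 of 20 were positive, with a median log2 fold change of 0.36. Smcp, a mitochondrial capsule protein of the sperm midpiece, was at 1716 ± 299 against 2126 ± 81.9 FPKM, and Odf2, of the outer dense fibres of the tail, was at 1422 ± 199 against 1716 ± 16.4 FPKM (SD, n = 3 each). Of the round spermatid genes 23 of 23 were positive, with a median of 0.34, and edgeR called 0 genes of either list. At an unadjusted p of 0.05 in edgeR, 16 of the elongating and 17 of the round spermatid genes were higher, as were 8.85% of all genes tested. DESeq2 called 0 and 1 of the spermatid genes higher. Earlier germ cells were divided: of the pachytene spermatocyte genes 12 of 12 were positive, with a median of 0.30, and of the spermatogonial genes 10 of 12 were negative, with a median of -0.53. In edgeR 0 genes of these lists passed, and DESeq2 called 1 pachytene gene higher and 3 spermatogonial genes lower. Of all genes it tested, DESeq2 called 0.547% higher and 9.93% in either direction.

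Sertoli and Leydig markers differed in the other direction, with no overlap of their summed levels between the groups. Gene by gene, groups did not overlap in 12 of 14 Sertoli and 9 of 11 Leydig genes, all lower under the cKO label. Of all genes tested 37.9% did not overlap in either direction. Those higher were 18% of all genes, and the remainder of the 37.9% were lower. The sums lean on single genes: in control replicate 3 Insl3 held 7339 FPKM of the Leydig sum and Clu 1468 FPKM of the Sertoli sum. Of the Sertoli list 14 of 14 measured genes were negative, with a median log2 fold change of -0.98, and their summed level was 1409, 953 and 2535 FPKM under the control label against 729 to 752 FPKM under the cKO label. For the Leydig list 11 of 11 were negative, with a median of -1.82, at 4431, 2203 and 10812 FPKM against 1539 to 1706 FPKM. Summed FPKM of the 7 genes was 21197, 22256 and 15773 under the control label and 22881 to 25268 under the cKO label, so the library with the most Sertoli and Leydig RNA, control replicate 3, held the least of the 7. By edgeR 0 genes of both lists passed, and DESeq2 called 13 Sertoli and 7 Leydig genes lower. Over all genes it tested, DESeq2 called 9.93% in either direction and 0.547% higher, so most of its calls were lower. Every Sertoli and Leydig gene of these lists was present in all 6 tables. Macrophage (9 of 9 negative), myoid and stromal (9 of 9) and endothelial genes (6 of 7) also had negative medians, of -1.42, -0.71 and -0.53, but their summed levels overlapped between the groups, since control replicate 2, at 56.9, 92.0 and 16.3 FPKM in that order, lay within the 53.3 to 64.2, 76.0 to 94.4 and 13.1 to 16.8 FPKM of the cKO label. The part of these shifts in the result was not tested. Epididymal RNA was low: Defb20, Crisp1, Rnase10, Spint4 and Adam7 had means of 0.0133 to 1.28 FPKM. Single libraries stood higher, with Crisp1 at 1.89 FPKM in control replicate 3 and Rnase10 at 2.82 FPKM in cKO replicate 1. Spint4 was absent from 5 tables and Adam7 from 4, and Cst8, which spermatids also make, was at 208 FPKM. Of the blood genes, Hbb-bs was at 11.4 and 13.3 FPKM in cKO replicates 1 and 3, and at most 0.11 FPKM elsewhere. Hbb-bt was at 2.39 and 2.7 FPKM in the same libraries and 0 elsewhere, whereas Hbb-b1 was at 12.1 to 43.4 FPKM over all 6. The cause of this globin difference among libraries was not tested.

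**Figure D4:**
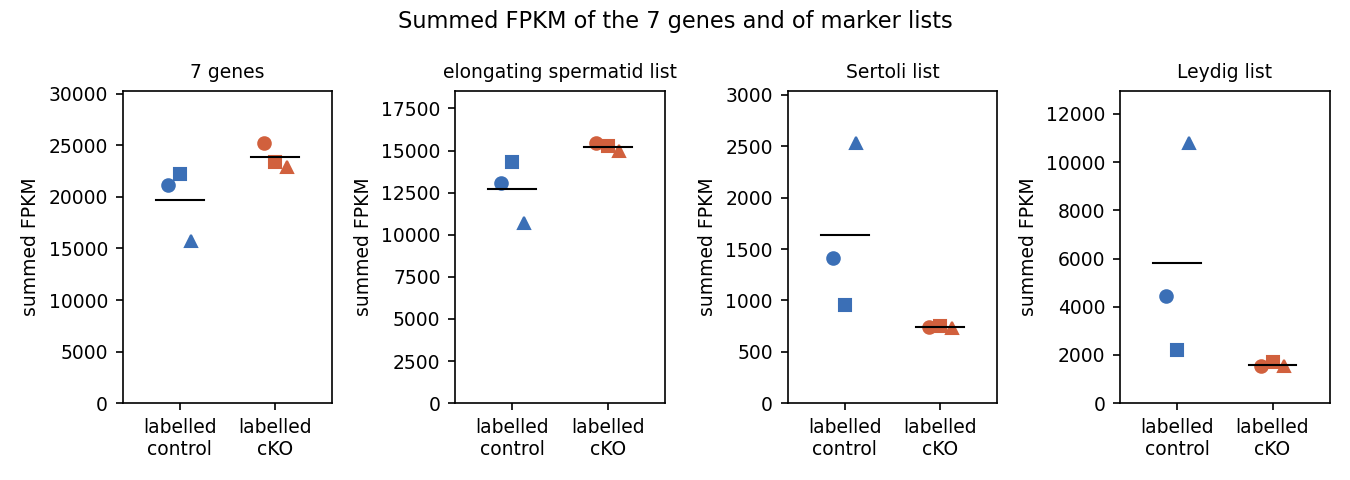
Summed FPKM in each library of the 7 genes, 20 elongating spermatid genes, 14 Sertoli genes and 11 Leydig genes; blue is labelled control, orange labelled cKO, circles, squares and triangles are replicates 1, 2 and 3, and the line is the group mean. Control replicate 3 is lowest for the 7 genes (15773) and highest for the Leydig list (10812).

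Genes that act on protamine expression were examined from 4 lists, and edgeR called 0 genes in each, as it did over all genes tested. At an unadjusted p of 0.05, 4 transcription, 5 storage, 6 deposition and 2 histone removal genes were higher, and 1 storage and 5 histone removal genes were lower. Of all genes tested 8.85% were higher at that threshold. The share of all genes lower is not given here, so the counts of lower genes stand without a background. In the list of transcription factors and cofactors 9 of 10 measured genes were positive, with a median log2 fold change of 0.32. Its most abundant members were Spz1, a testis helix-loop-helix factor, at 714 ± 95.2 against 862 ± 16.5 FPKM, Fhl5, the coactivator of CREM, at 157 ± 23.9 against 189 ± 15.7 FPKM, and Gtf2a1l, a germ cell form of TFIIA, at 152 ± 23.8 against 176 ± 6.72 FPKM (SD, n = 3 each). Crem, named for its motif after its values were seen, was at 65.5 ± 9.34 against 77.1 ± 0.592 FPKM (log2 0.33, SE 0.13; edgeR adjusted p = 0.173). The negative gene was Taf7l, at -0.018.

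Among genes that store or translate spermatid mRNA, 14 of 17 were positive, with a median of 0.28. Ybx2, the Y-box protein that coats stored protamine mRNA, was at 1125 ± 197 against 1347 ± 62.8 FPKM, the poly(A)-binding protein gene Pabpc1 at 844 ± 121 against 979.7 ± 20.9 FPKM, and the Y-box gene Ybx3 at 792 ± 96.0 against 929 ± 18.8 FPKM (SD, n = 3 each). The 3 negative genes, named after their values were seen, were Prkra (-0.79), translin Tsn (-0.30) and its partner Tsnax (-0.24). DESeq2 called 1 gene lower in this list and 1 in that of histone removal, and 0 in the other 2 lists. Of all genes it tested, 9.93% were called in either direction.

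For deposition and modification of the basic proteins, 9 of 10 genes were positive, with a median of 0.29. The phosphatase Ppp1cc was at 476 ± 37.0 against 528 ± 14.5 FPKM, Hspa2, a chaperone of transition proteins, at 365 ± 58.3 against 423 ± 9.97 FPKM, and the kinase Tssk6, needed for the exchange of histones for protamines, at 241 ± 48.0 against 304 ± 10.8 FPKM (SD, n = 3 each). Glycolytic Aldoa was the negative gene, at -0.014. The histone removal list was divided, with 11 of 20 positive and a median of 0.091. Its most abundant genes lay with the protamines: Phf7, a reader and ligase for histones, at 869 ± 123 against 1059 ± 13.4 FPKM, the histone chaperone Nasp at 287 ± 46.0 against 327 ± 17.1 FPKM, and Psme4, the proteasome activator for acetylated histones, at 122 ± 14.3 against 139 ± 3.96 FPKM (SD, n = 3 each).

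Genes flanking the protamine cluster were far less abundant than its members. Socs1, a cytokine signalling inhibitor 2398 bases beyond Tnp2, was at 0.4 to 2.43 FPKM over the 6 libraries, and Rmi2, of the BLM helicase complex, 38235 bases beyond Prm1, was at 0.39 to 0.83 FPKM. Clec16a, a gene of mitophagy 43056 bases away, was at 22.6 to 26.7 FPKM, with a log2 fold change of 0.053 (SE 0.090; edgeR adjusted p = 0.698), and Gm21859 had at most 0.05 FPKM. Of these 4 neighbours 0 thus reached the 234 FPKM at which Prm3, the least abundant gene of the cluster, was lowest.

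Around Tnp1 the antisense gene 1700027A15Rik, with which it shares exonic bases, was at 326, 433 and 320 FPKM under the control label against 454, 407 and 459 FPKM (log2 0.38, SE 0.15; edgeR adjusted p = 0.173). Its groups overlapped, and as for Tnp1 its control replicate 2 was the highest under that label. The insulin-like growth factor binding protein gene Igfbp2, 162599 bases away, was at 12.1, 7.72 and 17.3 against 6.21, 5.92 and 5.82 FPKM (log2 -0.97, SE 0.27; edgeR adjusted p = 0.166), and Igfbp5 was at 0.22 to 1.47 FPKM. Beside Hils1 lie the collagen gene Col1a1, at 1.24 to 4.8 FPKM, and Ppp1r9b, a neurabin, at 10.7 to 13.7 FPKM; beside H1fnt, the zinc finger gene Zfp641 was at 0.34 to 1.18 FPKM and 1700031M16Rik at 93.9 to 143 FPKM. The other neighbours were under 1 FPKM: Pinc, Tmem92, Samd14, Olfr286 and Olfr287.

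Across the 6 libraries, the genes whose log2 CPM most resembled the mean of the 7 by Pearson's r were Paqr5 (0.9992), Dnajc21 (0.9990), Wnt3 (0.9988), Mdh1b (0.998) and Wdr31 (0.998). Their log2 fold changes were 0.29, 0.23, 0.29, 0.35 and 0.30. Such a pattern was common: of 6140 named genes with a mean of at least 10 FPKM, 1202 had an r of at least 0.95. All of these values come from the same 6 libraries and share their scaling.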

How the data were processed

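Testis RNA was measured in 6 libraries (3 per label), with 17689205 to 18822050 expected counts each, which leaves little counting error in genes as abundant as these. Expected counts and FPKM were estimated by the authors with RSEM, which the submitters' processing notes name beside bcl2fastq 2.16, HISAT2 2.0.4, Bowtie2 2.2.5, DESeq2 and mm10, with no role or order. The deposited expected counts are not normalized; 24.6 to 25.8% were not whole. FPKM were computed by the authors per length and depth. The lowest listed FPKM is 0.01, and genes absent from a table count as 0. Prm1, Prm2 and Tnp2 have fractional counts.

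Counts were rounded and tested with edgeR 4.0.16 (R 4.3.3): filterByExpr (minimum count 10, total 15), TMM, glmQLFit and glmQLFTest, no covariate, Benjamini-Hochberg over 18269 genes, threshold 0.05. The SE is the log2 fold change divided by the square root of F, and intervals are 95%. Log2 CPM used a prior count of 2. The test was checked on simulated counts with equal spread in both groups and larger changes than those of the protamine and transition protein genes. That check does not show whether changes as small as theirs can be called. Ratios used FPKM, with exact permutation tests that went through every split of the libraries into groups. Their Benjamini-Hochberg adjustment used scipy 1.17.1. Alternatives were DESeq2 1.42.0, limma 3.58.1 on FPKM, other scalings and filters, leaving out each library, and the replicate block. A stricter filter asked 5 CPM in 3 libraries.

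Members and lists were chosen with earlier results of these data known. Besides the 7 genes, L3mbtl2 was named, as were the 3 genes with the highest mean FPKM of each protamine list, the highest of the spermatid lists, the 2 nearest listed genes on either side of each locus and the 5 most alike in pattern; any other gene was chosen after its values were seen. Coordinates are from RefSeq, GRCm38.p6, whose primary assembly is that of mm10, and exons from GENCODE M21. Of the 7 genes, 7 had a promoter sequence.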

Additional observations from a re-analysis of the deposited data

How the results depend on the processing

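The log2 fold change of each of the 7 genes was positive under each of its 14 alternatives (98 values), and no call was made except without control replicate 2, where 4 of the 7 passed; over the fits that leave out 1 library the number called ran from 0 to 4. Over these fits the log2 fold change ran from 0.24 to 0.54 for Prm1, 0.22 to 0.48 for Prm2, 0.21 to 0.57 for Prm3, 0.18 to 0.51 for Tnp1, 0.23 to 0.496 for Tnp2, 0.24 to 0.48 for Hils1 and 0.19 to 0.49 for H1fnt. By library totals the median of the 7 was 0.26 and that of all genes -0.10. The cause of these shifts was not tested.

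Of the measures within a library, the share of counts and Tnp1 to Prm1 kept their sign in each alternative, and the others, which lay near 0, changed sign in 10 alternatives. Leaving out 1 library gave log2 differences of -0.019 to 0.061 for Prm1 to Prm2, -0.16 to -0.041 for Tnp1 to Prm1, -0.036 to 0.036 for Tnp2 to Prm1, -0.060 to 0.012 for Hils1 to Prm1, -0.018 to 0.065 relative to round spermatid genes and -0.039 to 0.032 relative to elongating spermatid genes; with the median over the list the last was -0.017. The share of counts differed by 0.114 to 0.277 percentage points, and that of summed FPKM by 0.776.

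The replicate numbers gave no sign of pairing: deviations from the group means correlated at 0.043, -0.0067 and -0.039 between libraries of the same number. Between libraries of different numbers they correlated at -0.066 to 0.074. With 3 libraries a group such values cannot exclude a paired design. With the replicate block, edgeR called 0 of the 7, with log2 fold changes of 0.32 (Tnp1) to 0.40 (Prm1).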
